A study of Homo sapiens with 8 samples.

Results

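Heat shock proteins and chaperonins are the machines that fold newly made proteins and refold damaged ones, and their messengers are among the abundant transcripts of a growing cell. Here the messengers of these families were followed in KM-H2 cells, an established Hodgkin lymphoma cell line, in total RNA and in the RNA bound by Argonaute 2 (Ago2), the protein that carries microRNAs to their targets. A probe was a member if its gene symbol began with HSPA, HSPB, HSPC, HSPD, HSPE, HSPH, HSP90 or DNAJ, was CCT or BAG followed by a digit, or was TCP1, and if it was in the deposited table of values. By this rule 135 probes for 86 genes were on the array, 100 probes for 64 genes were in the deposited table, and 99 of them, still for 64 genes, were measured in all channels and are described. These 99 are part of 16057 probes treated the same way. No symbol beginning with HSPC was found among them. The 1 member that dropped out was a probe for DNAJA1, whose only spot was an outlier in a channel.

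KM-H2 cells had been transduced with the empty pMSCV-PIG vector (EV) or with the miR-155 sponge in that vector (miR-155-sp), and GFP+ cells were sorted from both. A sponge is a transcript with many binding sites for a microRNA, which draws it away from its other targets. From each population there was total RNA and RNA of an Ago2 immunoprecipitate (IP), obtained with an anti-Ago2 antibody. Each of the 4 RNAs was labelled with Cy3 and with Cy5 and hybridized on 4 two-colour Agilent arrays with the dyes swapped, so that each population was measured once with its IP RNA in Cy5 and once with it in Cy3. There was 1 sample per group and thus no test, and a difference was read only against the other dye orientation, which shows labelling error and not the spread between cultures. In such bulk RNA fewer cells of a type and less RNA per cell cannot be told apart. IP/T is the signal in the IP fraction over that in total RNA, on a scale where both fractions have the same distribution of signals, and a probe with IP/T of at least 2 was counted as enriched.

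The cells carried the markers of their label. All 9 Hodgkin cell line markers examined, among them TNFRSF8 (CD30) and CCL17, had a retained probe. Of 3 T-cell markers CD2 was retained and CD3D and CD3E were not, and of 3 monocyte markers CD14 was retained and CD68 and LYZ were not. The share of spots well above background was between 38.8% and 43.4% in Cy5 and between 58.9% and 61.9% in Cy3 channels, so dim probes rest more on Cy3. No spot for a gene was saturated.

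HSP70 proteins, encoded by the HSPA genes, bind exposed stretches of unfolded proteins in cycles driven by ATP. J-domain proteins, the DNAJ families, bring them their clients, while HSPH proteins and BAG proteins exchange their nucleotide and end the cycle. HSP90 receives signalling proteins from HSP70 for a late step of folding. The small heat shock protein HSPB1 holds unfolded proteins, HSPD1 and HSPE1 form the chamber and the lid of the mitochondrial chaperonin, and TCP1 and the CCT proteins form the cytosolic chaperonin TRiC, which folds actin and tubulin. Many of these genes are switched on in stress by heat shock factor 1, which binds inverted repeats of a short motif. A messenger loaded by a microRNA into an Ago2 complex is expected to be enriched in an Ago2 immunoprecipitate.

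The microRNA that the sponge binds is shown with its seed, bases 2 to 8, in capitals, since pairing of the seed to a messenger is the main determinant of targeting. It lies on the plus strand of chr21:25573983-25574006 (GRCh38.p14), and the sequence is that of RefSeq.
hsa-miR-155-5p: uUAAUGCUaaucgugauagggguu

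The heat shock element was searched in the promoters of member genes, as RefSeq gives them in GRCh38.p14, from 250 bases before to 50 bases after the start site. The motif was GAANNTTCNNGAA or its reverse complement TTCNNGAANNTTC, which covers both strands. Of 64 member genes 58 had a promoter sequence and 6 of these held the element (10.3%), which 166 of all 27305 promoters did (0.608%). The genes were DNAJA1, DNAJB6, HSP90AA1, HSP90AB1, HSPA8 and HSPD1. The elements, in capitals, are printed on the gene's strand for the genes whose IP/T is described below in most detail: HSP90AA1 (chr14:102087108-102087144, minus strand), the element of HSPA8 nearest to its start site (chr11:123062167-123062203, minus strand), HSPD1 (chr2:197500056-197500090, minus strand) and DNAJB6 (chr7:157336861-157336897, plus strand).
HSP90AA1: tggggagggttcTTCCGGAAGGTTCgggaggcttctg
HSPA8: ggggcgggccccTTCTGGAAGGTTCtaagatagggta
HSPD1: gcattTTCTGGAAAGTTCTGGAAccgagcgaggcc
DNAJB6: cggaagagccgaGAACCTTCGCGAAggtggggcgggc

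A match is a description of letters and does not show a bound factor, and the lack of an exact match does not show that an element is absent. The 18 member probes of the 6 genes had a median log2 IP/T of 0.39 in EV cells, and the 74 probes of member genes whose promoter held no exact match had -0.05. The first median rests on few genes, since HSP90AA1, HSPA8 and DNAJB6 gave 4 probes each, and probes of a gene are not independent. Whether the element bears on IP/T was not tested. With the sponge the median change of log2 IP/T was -0.02 in the first set and 0.03 in the second.

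Heat shock and chaperonin messengers were enriched in the Ago2 fraction at a share close to that of all probes. In EV cells 14 of 99 probes (14.1%) had IP/T of at least 2, against 15.1% of all 16057 probes. In miR-155-sp cells 15 of 99 did (15.2%), against 16.0% of all probes. Probes with IP/T of at most 0.5 were 6 of 99 in EV cells (6.06%), against 12.9% of all probes, and 7 of 99 in miR-155-sp cells (7.07%), against 14.0%. This gap was not seen over genes: when the probes of a gene were averaged, 6 of 64 member genes (9.38%) had IP/T of at most 0.5 in EV cells, against 9.51% of all genes. The median log2 IP/T of members was -0.01 in EV and 0.16 in miR-155-sp cells, beside -0.25 and -0.26 over all probes. Of the 99 members 86 were well above background in all 8 channels, and over these the medians were -0.09 and 0.05. The values of EV and miR-155-sp cells followed each other across the 99 probes (Pearson's r = 0.98, Spearman's rho = 0.94, across probes, which are not independent and share arrays), and so did both dye orientations in EV cells (r = 0.92, rho = 0.83). Probes were kept only if the labellings of each sample lay within 2-fold, which limits how far the orientations can differ.

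**Figure D1:**
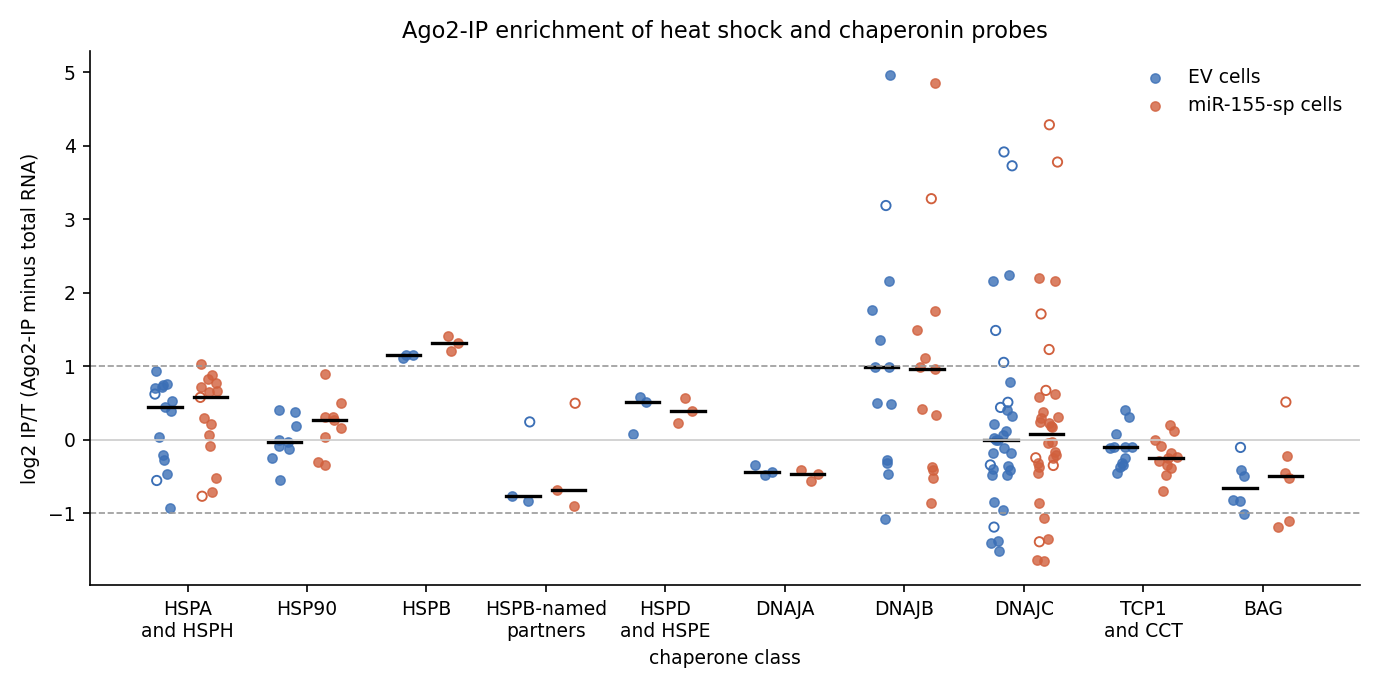
Log2 IP/T of the 99 member probes by class (each point a probe; blue, EV cells; orange, miR-155-sp cells; open circles, probes well above background in fewer than 8 channels; black bars, medians; dashed lines, IP/T of 2 and 0.5). The DNAJB and DNAJC families span the widest range, from -1.52 to 4.96 in EV cells, while no TCP1 or CCT probe passes either dashed line.

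The DNAJB and DNAJC families held the highest and the lowest values of single probes in EV cells. Among classes of more than 3 probes, DNAJB had the highest median log2 IP/T in EV cells (0.99 over 13 probes of 8 genes) and BAG the lowest (-0.65 over 6 probes of 4 genes). HSPA and HSPH stood at 0.44 (15 probes of 8 genes), DNAJC at -0.00 (32 probes of 24 genes), HSP90 at -0.03 (9 probes of 3 genes), and TCP1 with CCT at -0.10 (12 probes of 9 genes). The order of neighbouring classes is not secure, since the differences between them are smaller than the spread of probes within them. Over the alternatives run, the DNAJB median lay between 0.50 and 0.99 and that of HSPA and HSPH between 0.21 and 0.68. Of the 13 DNAJB probes 4 were of DNAJB6 and 3 of DNAJB12.

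**Figure D2:**
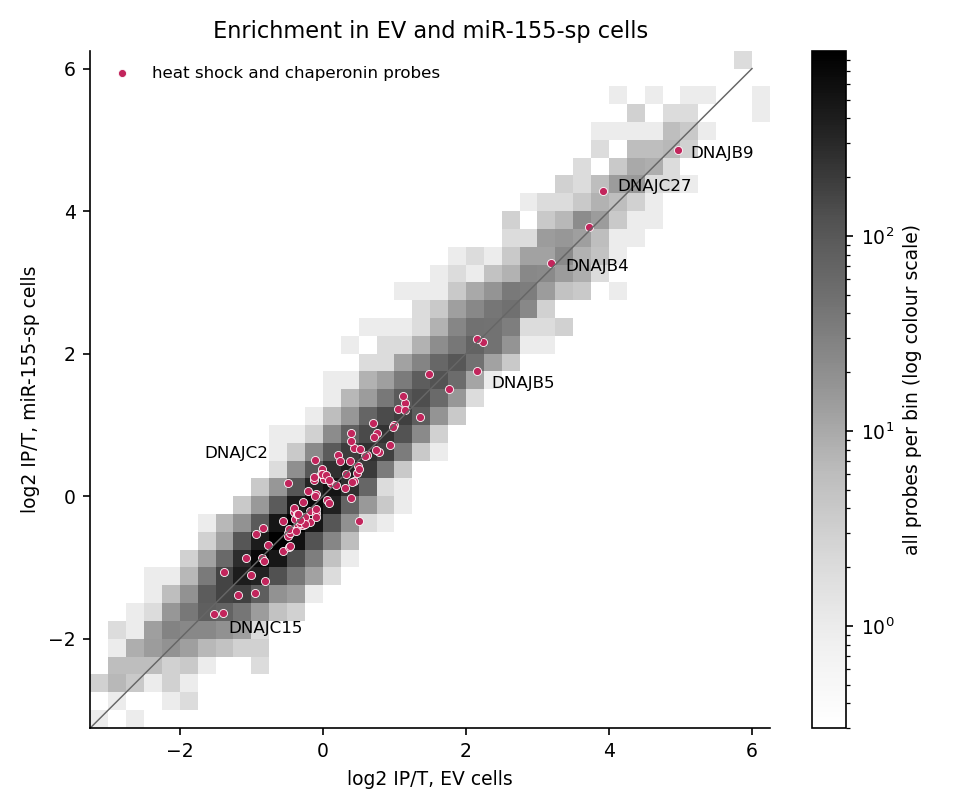
Log2 IP/T in EV cells (x axis) against miR-155-sp cells (y axis) for all 16057 probes, counted in square bins 0.25 wide (grey, log colour scale), with the 99 member probes as points and the line of equal values. Members follow the line from DNAJC15 at the lower left to DNAJB9 at 4.96 and 4.86.

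HSPA8, the constitutive cytosolic HSP70, had the highest IP/T of the HSP70 family in EV cells among probes above background in all channels. Its probe with the highest IP/T read a log2 signal of 15.05 in EV total, 15.98 in EV IP, 15.18 in miR-155-sp total and 15.89 in miR-155-sp IP RNA. Both IP samples were thus above both total samples, with IP/T of 1.91 in EV and 1.64 in miR-155-sp cells. The 3 other HSPA8 probes had IP/T between 1.36 and 1.68 in EV cells. None of the 4 reached 2. Processed copies of HSPA8 are known in the genome, and a probe may also read them.

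HSPA1A is the classic stress-induced HSP70. Its transcript is nearly identical to that of HSPA1B, so its probes cannot separate the pair. In EV cells the 3 probes had IP/T of 1.44, 1.63 and 1.69, which became 1.58, 2.05 and 1.85 with the sponge. The middle one read 7.54 in EV total, 8.25 in EV IP, 7.73 in miR-155-sp total and 8.77 in miR-155-sp IP RNA on the log2 scale. In both cell populations the IP sample was the higher one.

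HSPA5 and HSPA9, the HSP70 proteins of the endoplasmic reticulum (ER) and of mitochondria, lay on the other side. The HSPA5 probe above background in all channels had the lowest IP/T of the family, 0.52 in EV and 0.69 in miR-155-sp cells, from log2 signals of 9.15 in EV total, 8.22 in EV IP, 9.24 in miR-155-sp total and 8.71 in miR-155-sp IP RNA. The other HSPA5 probe, above background in 7 channels, had 0.68 and 0.59. HSPA9 had 0.72 and 0.61, from 9.90 in EV total, 9.43 in EV IP, 10.20 in miR-155-sp total and 9.49 in miR-155-sp IP RNA. IP signals of both genes were below the total signals in both populations. HSPA4 and HSPA14 were near even, with IP/T between 0.83 and 1.03 in EV cells, and HSPA13, a microsomal HSP70 measured in 7 channels, had 1.54.

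HSPH1, which exchanges the nucleotide of HSP70, had IP/T of 1.31 in EV and 1.71 in miR-155-sp cells, from log2 signals of 10.88 in EV total, 11.27 in EV IP, 10.73 in miR-155-sp total and 11.50 in miR-155-sp IP RNA.

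HSP90 messengers were close to even in EV cells. HSP90AA1, the inducible cytosolic form, had IP/T between 0.92 and 1.32 over 4 probes, HSP90AB1, the constitutive cytosolic form, between 0.84 and 1.14 over 3, and HSP90B1, the form of the ER, 0.68 and 0.99. In miR-155-sp cells HSP90AA1 was between 1.20 and 1.85, above 1 with every probe. Its probe with the highest IP/T read 13.58 in EV total, 13.98 in EV IP, 13.21 in miR-155-sp total and 14.10 in miR-155-sp IP RNA. The dye orientations of this probe differed widely, with log2 IP/T in EV cells of 0.01 with the IP in Cy5 and 0.79 with the IP in Cy3. The HSP90B1 probe at 0.68 had -1.13 and 0.02 in these orientations, so the orientations disagreed about its value. The brightest HSP90AB1 probe read 12.20 in EV total, 12.11 in EV IP, 12.12 in miR-155-sp total and 12.15 in miR-155-sp IP RNA, and in miR-155-sp cells the 3 probes of the gene had IP/T between 0.81 and 1.12. The brighter HSP90B1 probe read 12.44, 12.43, 12.23 and 12.54 in the same order, with IP/T of 0.99 in EV and 1.24 in miR-155-sp cells. The other HSP90B1 probe read 9.75, 9.19, 9.43 and 9.08, with IP/T of 0.79 in miR-155-sp cells. HSP90AA1 and HSP90AB1 have processed copies in the genome that the probes may also read.

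HSPB1, the small heat shock protein HSP27, was enriched with all 3 probes and in both populations. In EV cells its IP/T was 2.16, 2.22 and 2.22, and with the sponge it was 2.65, 2.32 and 2.48. One probe read 16.23 in EV total, 17.39 in EV IP, 16.18 in miR-155-sp total and 17.49 in miR-155-sp IP RNA on the log2 scale. Another had EV log2 IP/T of 0.94 with the IP in Cy5 and 1.36 with the IP in Cy3, so that in the first orientation it fell short of 2-fold. No other small heat shock protein had a probe among the members, since the probes of HSPB2, HSPB3, HSPB6, HSPB7, HSPB8 and HSPB9 were not in the deposited table.

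The mitochondrial chaperonin was moderately on the IP side. HSPE1, its lid, read 15.34 in EV total, 15.85 in EV IP, 15.35 in miR-155-sp total and 15.74 in miR-155-sp IP RNA, which gave a log2 IP/T of 0.51 in EV and 0.39 in miR-155-sp cells. The brighter probe of HSPD1, its chamber, read 14.34, 14.92, 14.33 and 14.90 in the same order and gave 0.58 and 0.57. The other HSPD1 probe gave 0.08 and 0.22, and its orientations in EV cells lay on either side of even (log2 IP/T of -0.06 and 0.22). Both genes have processed copies in the genome.

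DNAJB9 was the member most enriched in the Ago2 fraction. It encodes ERdj4, a J-domain partner of HSPA5 in the ER. Its probe read 9.26 in EV total, 14.22 in EV IP, 9.28 in miR-155-sp total and 14.14 in miR-155-sp IP RNA on the log2 scale. The IP signals were far above the total signals in both populations, with IP/T of 31.1 in EV and 29.0 in miR-155-sp cells, and in EV cells it ranked 23 from the top among 16057 probes. With the IP in Cy5 the log2 IP/T in EV cells was 5.26 and with the IP in Cy3 it was 4.66.

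DNAJB4 and DNAJB5, of the same DNAJB family, were also enriched. DNAJB5 read 12.39 in EV total, 14.54 in EV IP, 12.31 in miR-155-sp total and 14.06 in miR-155-sp IP RNA, which gave IP/T of 4.45 and 3.37. DNAJB4 had IP/T of 9.10 and 9.70, yet its total RNA was well above background in only 1 of 2 labellings in each population. DNAJB1, the main stress-induced partner of HSP70, was modest, with 9.70 in EV total, 10.19 in EV IP, 9.88 in miR-155-sp total and 10.30 in miR-155-sp IP RNA, and IP/T of 1.41 and 1.34. DNAJB11 of the ER had 0.83 and 0.75, and DNAJB2 was the lowest of the family at 0.47 and 0.55.

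For DNAJB6 and DNAJB12 the answer depended on the probe. DNAJB6, a co-chaperone that keeps aggregating proteins soluble, had 3 probes matched to NM_005494 with IP/T of 1.39, 2.56 and 3.39 in EV cells, and 1 probe matched to NM_058246, another transcript of the gene, with 0.73. The probe with the highest IP/T read 14.03 in EV total, 15.79 in EV IP, 13.96 in miR-155-sp total and 15.46 in miR-155-sp IP RNA. The probe of NM_058246 read 10.29, 9.83, 10.50 and 9.99 in the same order, with the total above the IP samples. DNAJB12, anchored in the ER membrane, had IP/T of 1.98 and 1.99 with 2 probes of NM_001002762 and of 0.80 with a probe of NM_017626. These were the only genes of 23 with several probes whose probes spanned more than 1 on the log2 IP/T scale in EV cells (2.22 for DNAJB6 and 1.32 for DNAJB12). The median span was 0.38, and 14 genes spanned less than 0.5.

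**Figure D3:**
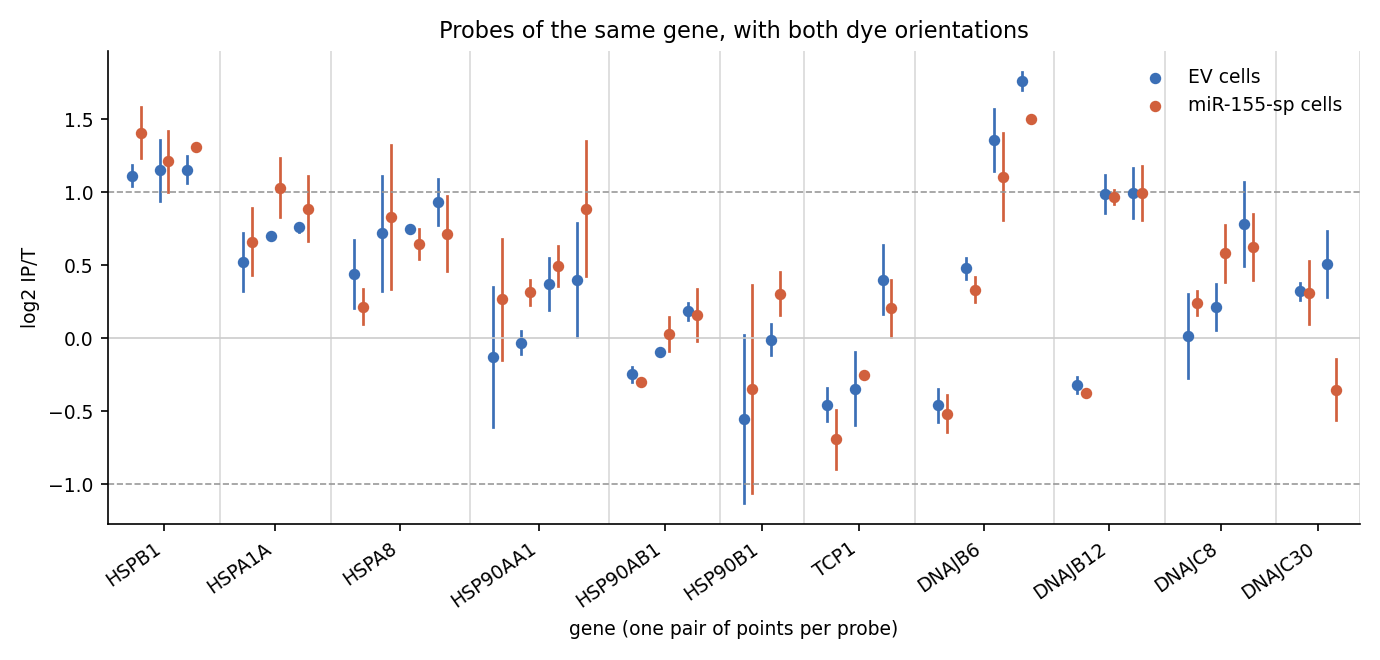
Log2 IP/T of each probe of 11 genes with several probes (blue, EV cells; orange, miR-155-sp cells; points, mean of both dye orientations; vertical lines, from one orientation to the other; dashed lines, IP/T of 2 and 0.5). The 3 HSPB1 probes lie close together, while 1 probe each of DNAJB6 and DNAJB12 lies below 0 and the rest above.

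The DNAJA messengers, whose proteins are closest in domain structure to the bacterial DnaJ, were all on the total side when both dye orientations were averaged. DNAJA1, DNAJA2 and DNAJA3 had 1 retained probe each, with IP/T of 0.74, 0.79 and 0.71 without and 0.72, 0.75 and 0.68 with the sponge. DNAJA2 read 9.44 in EV total, 9.10 in EV IP, 9.49 in miR-155-sp total and 9.08 in miR-155-sp IP RNA, and DNAJA3, the mitochondrial form, read 12.79, 12.30, 12.83 and 12.27. The orientations disagreed for DNAJA2 in miR-155-sp cells, with log2 IP/T of -0.93 with the IP in Cy5 and 0.10 with the IP in Cy3. The DNAJA1 probe left out here had a log2 IP/T of -0.31 without and -0.66 with the sponge in the authors' deposited values.

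DNAJC proteins share the J domain and little else, and their IP/T ran from 0.35 to 15.1 in EV cells. DNAJC27, which carries a small GTPase domain, had the highest values of the family, 13.2 and 15.1 with its 2 probes in EV cells, and 13.7 and 19.5 with the sponge. These probes were dim in total RNA. Only 1 of 2 labellings was well above background there, in both populations for the first and in miR-155-sp cells for the second, and the ratios are only as good as those signals. DNAJC13, an endosomal protein, had 2.80 and 3.27 and DNAJC16 2.07 and 2.34, each with 7 channels above background and 1 of 2 labellings of miR-155-sp total RNA not among them.

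A pair of probes counted under DNAJC25-GNG10 also passed 2-fold. That entry is a read-through of DNAJC25 into GNG10, a G protein subunit, so the probes, matched to NM_004125, may read the GNG10 messenger and not one with a J domain. Their IP/T was 4.71 and 4.47 in EV and 4.46 and 4.61 in miR-155-sp cells. One of them read 10.60 in EV total, 12.76 in EV IP, 10.28 in miR-155-sp total and 12.49 in miR-155-sp IP RNA on the log2 scale. The probe of DNAJC25 itself was on the opposite side, with 0.44 and 0.38 and 6 channels above background. Without both probes, the HSPB-named partners and the pseudogene CCT6P1, 12 of 93 probes were enriched in EV cells, beside 15.1% of all probes.

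The lowest values of all members were in the same family. DNAJC15, a mitochondrial J-domain protein of protein import, read 12.35 in EV total, 10.83 in EV IP, 12.34 in miR-155-sp total and 10.69 in miR-155-sp IP RNA, with IP/T of 0.35 and 0.32. DNAJC7, which binds HSP70 and HSP90 by its TPR repeats, read 9.33, 7.93, 9.78 and 8.15 in the same order, with 0.38 and 0.32. DNAJC1, of the ER membrane, read 10.51, 9.13, 10.38 and 9.31, with 0.39 and 0.48. IP signals of all 3 genes were below total signals in both populations and both orientations.

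The cytosolic chaperonin lay near even. Its 12 probes had IP/T between 0.73 and 1.32 in EV cells, and none passed 2 or 0.5 in either population. All 8 subunits were measured: TCP1 with 3 probes, CCT6A with 2, and CCT2, CCT3, CCT4, CCT5, CCT7 and CCT8 with 1 each, beside a probe of the pseudogene CCT6P1, whose sequence is close to that of CCT6A. The highest IP/T was that of a TCP1 probe, which read 14.89 in EV total, 15.29 in EV IP, 14.94 in miR-155-sp total and 15.15 in miR-155-sp IP RNA. Another TCP1 probe had the lowest, from 10.85, 10.39, 10.99 and 10.30, so that the range of the class was also the range of 1 gene. CCT4 had 1.24 and CCT2 1.06, and the other subunits were between 0.77 and 0.94.

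BAG and HSPBP1 messengers leaned to the total side in EV cells. BAG1, which joins HSP70 to the proteasome, read 14.26 in EV total, 13.25 in EV IP, 14.30 in miR-155-sp total and 13.20 in miR-155-sp IP RNA, with IP/T of 0.50 and 0.47. BAG3, the stress-induced member that acts in autophagy with HSPB proteins, had 0.75 and 0.85 with 1 probe, from 8.59, 8.17, 8.55 and 8.33, and 0.93 and 1.43 with a probe above background in 7 channels. BAG2 had 0.71 and 0.70, and both BAG5 probes had 0.56 and 0.57 in EV cells. HSPBP1, an HSP70 exchange factor named only in part like the small heat shock proteins, had 0.59 and 0.56 in EV cells with its 2 probes. HSPBAP1, which binds HSPB1, had 1.18 with 6 channels above background.

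With the sponge the members moved little, and no class or gene moved beyond 2-fold. IP/T was at least 2-fold higher in miR-155-sp cells for 0 of 99 members, against 0.380% of all probes, and at least 2-fold lower for 0, against 0.218%. It was lower in both dye orientations for 30 members (30.3%, against 30.4% of all probes) and higher in both for 32 (32.3%, against 31.1%). The median change of log2 IP/T was -0.01 over members and -0.00 over all probes, and its median size was 0.15 and 0.16. Between both orientations the changes of members correlated weakly (r = 0.27, rho = 0.28, across probes), as those of all probes did (r = 0.29, rho = 0.30), so the change of a single probe was poorly repeated between orientations. At a stricter call of 1.25-fold in both orientations, 1 member was lower (1.01%, against 3.89% of all probes) and 5 were higher (5.05%, against 5.44%).

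**Figure D4:**
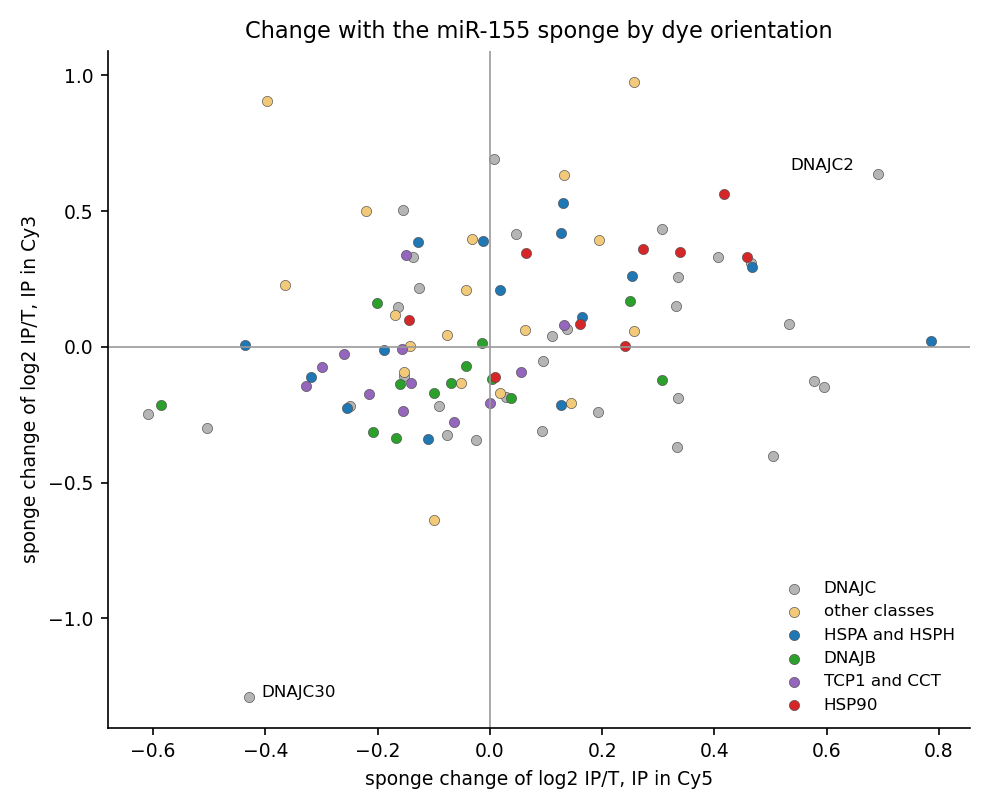
Change of log2 IP/T from EV to miR-155-sp cells with the IP in Cy5 (x axis) and with the IP in Cy3 (y axis), each point a member probe coloured by class. HSP90 probes lie mainly in the upper right and TCP1 and CCT probes mainly in the lower left quadrant, while DNAJC probes fill all 4.

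HSP90 probes were mostly higher with the sponge. Of 9 probes, from only 3 genes, 7 had a higher IP/T in both orientations with the sponge and 0 a lower one. Of all probes 31.1% were higher and 30.4% lower in both. The median change of the 9 was 0.20, beside a median size of change of 0.16 over all probes. All 4 HSP90AA1 probes were among the 7, with changes of 0.12, 0.34, 0.39 and 0.49. They were higher in both orientations under each of the 4 other sets of values run. Among these sets, the authors' deposited values are nearly those used here and could hardly differ. Both HSP90B1 probes were likewise among the 7 and higher under each set, with changes of 0.20 and 0.32. For the HSP90AA1 probe that changed most, total RNA fell by 0.37 and IP RNA rose by 0.12 on the log2 scale, while for another total RNA rose by 0.11 and IP RNA by 0.46. The probes of HSP90AA1 are measures of 1 messenger in the same 4 RNAs and do not replicate each other. HSP90AB1 differed, with changes between -0.05 and 0.12.

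HSPH1 and HSPB1 were also higher in both orientations with every probe. HSPH1 changed by 0.38, from 0.47 with the IP in Cy5 and 0.29 with the IP in Cy3, and the HSPB1 probes by 0.06, 0.16 and 0.29. For HSPA1A total and IP RNA were both higher in miR-155-sp cells, by 0.15 to 0.30 and by 0.28 to 0.52, and IP/T by 0.13 to 0.33, with 2 of 3 probes higher in both orientations. HSPA8 went the other way in both orientations with 3 of 4 probes, by -0.10, -0.22 and -0.23, and by 0.11 with the fourth, yet with channels scaled to a common median 1 probe was lower and 2 were higher. Over the 15 HSPA and HSPH probes 7 were higher and 4 lower in both orientations, beside 31.1% and 30.4% of all probes. Their median change was 0.13, which with the Cy3 labellings alone became -0.06.

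TCP1 and CCT moved in the opposite direction. IP/T was lower in both orientations for 8 of 12 probes and higher for 1, that of CCT8, beside 30.4% and 31.1% of all probes. The median change was -0.14. With channels scaled to a common median, 4 were lower and 3 higher, so the count depends on the scaling. Total RNA of the class had a median change of 0.03 and IP RNA of -0.08. The 2 TCP1 probes that were lower in both orientations had changes of -0.19 and -0.24, the third had 0.09, and the largest fall outside TCP1 was that of a CCT6A probe (-0.20). The sizes are close to the median size of change over all probes, 0.16.

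DNAJB probes were lower in both orientations for 7 of 13 and higher for 1, that of DNAJB2, beside 30.4% and 31.1% of all probes. With the common median 3 DNAJB probes were lower and 2 higher. The 4 DNAJB6 probes were all lower, by -0.06, -0.15, -0.25 and -0.26, whatever side of even they were on, 2 of them in both orientations also with the common median. The 3 probes of NM_005494 had IP RNA lower by 0.28 to 0.34 and total RNA lower by 0.06 to 0.13. DNAJB5 changed by -0.40, with -0.59 with the IP in Cy5 and -0.21 with the IP in Cy3. DNAJB9 changed by -0.10, or by 0.10 when channels were scaled to a common median.

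**Figure D5:**
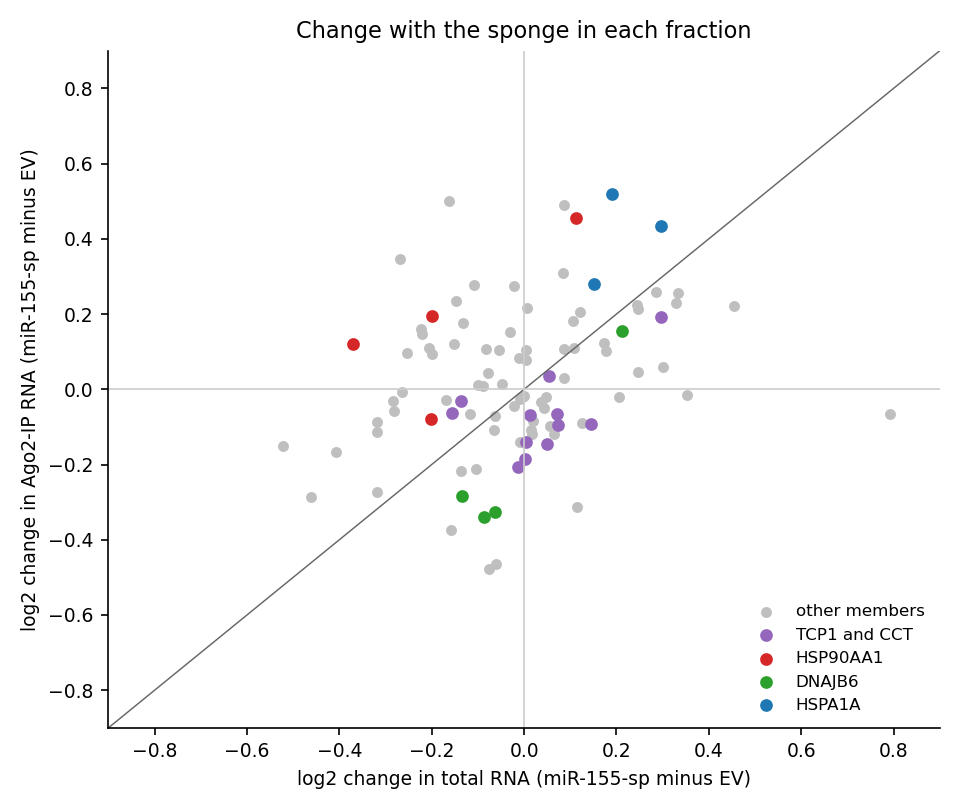
Log2 change from EV to miR-155-sp cells in total RNA (x axis) and in Ago2-IP RNA (y axis) of the 99 member probes, with the line of equal change. HSP90AA1 and HSPA1A probes lie above the line, and DNAJB6 probes and 10 of 12 TCP1 and CCT probes lie below it.

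The largest rise and the largest fall of single probes were in DNAJC genes. DNAJC2, which sits on the ribosome, rose most among probes above background in all channels, with IP/T of 0.71 in EV and 1.13 in miR-155-sp cells, a change of 0.66. Its log2 signals were 10.39 in EV total, 9.91 in EV IP, 10.23 in miR-155-sp total and 10.41 in miR-155-sp IP RNA. Both orientations gave a rise (0.69 and 0.64), yet the Cy3 labellings alone gave -0.05 and the Cy5 labellings alone 1.38, so the rise was seen in the Cy5 labellings and not in the Cy3 labellings. The next largest rises among probes above background in all channels were those of an HSP90AA1 probe (0.49), an HSPA5 probe (0.40, from 0.79 and 0.02 in its orientations), another HSP90AA1 probe (0.39) and DNAJC6, the neuronal uncoating factor auxilin (0.39).

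The largest fall of all members was that of a DNAJC30 probe above background in 6 channels (-0.86, from -0.43 and -1.29 in its orientations). Among probes above background in all channels, the largest falls were those of a DNAJC19 probe (-0.43), DNAJC14 (-0.40), DNAJB5 (-0.40), a BAG5 probe (-0.37) and a DNAJB6 probe (-0.26). DNAJC19, part of the mitochondrial import motor, read 12.24 in EV total, 12.64 in EV IP, 12.35 in miR-155-sp total and 12.32 in miR-155-sp IP RNA. Its EV IP sample was the highest of the 4. DNAJC14 read 11.07, 10.12, 11.01 and 9.66 in the same order. The other BAG5 probe rose by 0.38, so the probes of that gene disagreed.

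In total RNA the sponge left the members as it left other genes. Total RNA was higher with the sponge in both labellings for 34 members (34.3%, against 32.6% of all probes) and lower in both for 30 (30.3%, against 33.6%), with changes between -0.52 and 0.79. IP RNA was higher in both labellings for 34 (34.3%, against 30.7%) and lower in both for 31 (31.3%, against 33.2%), with changes between -0.48 and 0.52. No member changed 2-fold in both labellings in either fraction. Of stress-induced genes, log2 total RNA changed by 0.15 to 0.30 for the HSPA1A probes, 0.18 for DNAJB1, -0.15 for HSPH1, and -0.03 and -0.27 for the BAG3 probes. For HSP90AA1, the inducible cytosolic HSP90, the changes lay between -0.37 and 0.11 over 4 probes.

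The co-chaperones and folding factors that work with these proteins had a lower median IP/T than the members. Of 50 such genes 48 were retained, with 74 probes and a median log2 IP/T of -0.40 in EV and -0.37 in miR-155-sp cells, beside -0.25 and -0.26 over all probes. In EV cells 6 of the 74 were enriched (8.11%, against 15.1% of all probes) and 12 had IP/T of at most 0.5 (16.2%, against 12.9%). With the sponge 6 were enriched (8.11%, against 16.0%) and 14 had at most 0.5 (18.9%, against 14.0%). The highest was CDC37L1, a relative of the kinase co-chaperone CDC37, with 14.0 in EV and 16.3 in miR-155-sp cells, while CDC37 itself had 0.95 and 0.80. ST13, which links HSP70 to HSP90, had 7 probes, of which 6 had IP/T between 0.33 and 0.48 in EV cells. These 6 probes of a single gene are part of the 12 at or below 0.5 in EV cells and of the 14 with the sponge. The shares at or below 0.5 thus lean on ST13, and shares over genes were not computed for this list. Subunits of prefoldin, which hands actin and tubulin to TRiC, were low for PFDN6 (0.26) and PFDN1 (0.30 and 0.42) and above even for PFDN2 (1.47). Stress regulators differed from each other, with 0.54 in EV and 0.72 in miR-155-sp cells for HSF1, 0.83 and 0.78 for HSF2, and 3.47 and 0.97 in EV cells for the probes of HSBP1, a small protein that binds heat shock factor. With the sponge 20 of the 74 probes had a lower IP/T in both orientations (27.0%, against 30.4% of all probes) and 21 a higher one (28.4%, against 31.1%).

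Of the 35 member probes on the array outside the deposited table, 20 were well above background in fewer than 4 channels, 12 of them in 0, and 15 in 4 or 5. No probe was left for 22 genes. Among these were HSPA2 and HSPA6, whose probes were above background in 0 and 1 channels, HSPA12A and HSPA12B at 0, HSPA1L at 2, and DNAJA4, whose 2 probes were at 0. Signals this dim do not show that the genes were silent.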

How the data were processed

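The members and gene lists were chosen with earlier results of these data known. Per the file headers, the authors made the spot intensity values with Agilent Feature Extraction 10.7.3.1 (10.5.1.1 in the submitters' processing notes), which subtracted background and balanced the dyes of an array. The deposited log2 values had been quantile-normalized and filtered by the authors for detection and for agreement between labellings. They decided which probes were members, and differed from the values computed here by a median of 0.00056.

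Spots that were controls or outliers were dropped, the log2 intensities were quantile-normalized over the 8 channels, and probes were retained if at least 4 channels were well above background and if no sample's labellings differed more than 2-fold. The labellings of a sample were averaged. Of 41000 probes 17912 were retained, and of 16065 deposited probes 16057 were. Genes were named by accession through RefSeq (GRCh38.p14), which matched 73.8% of the 16057 probes. Probe coordinates are not given, since the array design uses hg18. With 1 sample per group no test was run.

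Values by sample are given for HSPA1A, HSPA5, HSPA8, HSPA9, HSP90AA1, HSP90AB1, HSP90B1, HSPB1, HSPD1, HSPE1, HSPH1, DNAJB1, TCP1 and BAG3, by their probes or range. The other genes named were the highest and lowest of each class in EV cells and those past 2-fold either way in both orientations, among probes above background in all channels, and the 5 largest rises and falls with the sponge. Further genes were named after their values were seen. The tools were pandas 2.3.3 and numpy 2.4.6 in Python 3.11.15, and limma 3.58.1 in R 4.3.3 for the alternatives with normexp (offset 50). The code was tested on simulated data.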

Additional observations from a re-analysis of the deposited data

Results flagged for a closer look

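Of the 99 member probes 4 (4.04%), against 240 of all 16057 probes (1.49%), lay on opposite sides of even in EV and miR-155-sp cells in both dye orientations, so that each was on the IP side in one population and on the total side in the other. With 1 sample per group the difference between the populations was not tested. The DNAJC2 probe changed by 0.664 on the log2 IP/T scale, from IP/T of 0.71 to 1.13. A BAG3 probe, above background in 7 channels, changed by 0.6173, from 0.93 to 1.43, while the other BAG3 probe changed by 0.18 and stayed below even. With the Cy3 labellings alone the first BAG3 probe was below even also in miR-155-sp cells (log2 IP/T of -0.06). Its change ranged from 0.09 to 1.15 over the alternatives run. The DNAJC3 probe, for an inhibitor of the eIF2 alpha kinases, changed by 0.35, from 0.92 to 1.17, with an EV ratio of 0.999 in one orientation. A DNAJC30 probe changed by -0.8595, from 1.42 to 0.78, with 6 channels above background, while the other DNAJC30 probe changed by -0.01.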

How the results depend on the processing

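No probe named by the rule with IP/T past 2-fold changed sides under any alternative run. Alternatives that only change which probes are counted leave a probe's own value as it was, so they could not have moved it. Background correction mattered most for low ratios. Over all probes the median log2 IP/T in EV cells was -0.25, and -0.02 with normexp, loess and Aquantile or -0.14 with normexp and quantile normalization. Members with IP/T of at most 0.5 then numbered 1 with either for EV, and 1 and 2 for miR-155-sp cells, in place of 6 and 7. The share of all probes at or below 0.5 was 2.36% in EV and 1.91% in miR-155-sp cells with normexp, loess and Aquantile. With normexp and quantile normalization it was 3.74% and 3.69%. Members at or below 0.5 numbered 10 and 12 of 114 without the filter on agreement, beside 13.4% and 15.1% of all probes. In miR-155-sp cells they numbered 4 with the IP in Cy3 alone. Enriched members numbered 9 of 86 probes in EV cells when all channels had to be above background (10.5%, against 12.7% of all probes). They numbered 8 of 64 genes in either population when probes of a gene were averaged (beside 15.8% of all genes in EV and 16.6% in miR-155-sp cells), in place of 14 and 15 of 99 probes. With the sponge 14 members were lower in both orientations when channels were scaled to a common median, in place of 30. When probes were averaged 20 of 64 genes were higher, a share of 31.2% that is close to the 32.3% of 32 of 99 probes. At 5/4-fold, a call chosen after seeing the data, 1 was lower and 5 were higher. Members past 2-fold numbered 1 with the IP in Cy3 alone, and 0 to 3 with either labelling alone.

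The medians of the sponge change lay near 0 under every alternative. For log2 IP/T the median was 0.0789 with the common median, -0.0147 with normexp, loess and Aquantile, 0.0374 with normexp and quantile normalization, -0.0130 with the deposited values, -0.0180 with all channels above background, 0.0147 without the detection filter, -0.0170 without the filter on agreement, -0.0189 with labellings within 1.5-fold, 0.0006 and 0.0039 with the IP in Cy5 or Cy3 alone, -0.0169 with gene means, and 0.0045 to 0.0116 with either labelling alone. In total RNA it was -0.0127 with the common median, -0.0269 with normexp, loess and Aquantile, 0.0035 with all channels above background, 0.0041 with labellings within 1.5-fold, 0.0039 and 0.0088 with the IP in Cy5 or Cy3 alone, -0.0033 with gene means, and 0.0039 to 0.0088 with either labelling alone. In IP RNA it was 0.0660 with the common median, 0.0227 with all channels above background, 0.0363 with the IP in Cy5 alone, and -0.0016 to 0.0363 with either labelling alone. The median log2 IP/T in miR-155-sp cells was -0.0281 with gene means. The cause of these shifts was not tested. The median sponge changes of HSP90, of DNAJB and of TCP1 with CCT kept their sign under all 16 alternatives that gave them. The changes of every HSP90AA1 probe did so under its 14 or 15. Several of these alternatives only change which probes are counted, so a probe's own value was the same in them by construction. The deposited values are also nearly those computed here. The number of alternatives therefore overstates how far the signs were tried. Those of the other classes each turned under at least 1. Naming by the gene symbols of the scanner files was not run, as the columns used here hold accessions, and no member was named as an HSPC clone. No paired analysis was possible because the labels give 1 RNA per group.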
